A study of Homo sapiens with 6 samples.

Results

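Heat shock proteins and chaperonins were followed through 34 genes of 23026 in the authors' normalized table, chosen as the rows whose gene name was on a list of names. The rule used no measured value, though the list was drawn up with earlier results of these data known. The list holds the heat shock factors HSF1 and HSF2, 5 HSP70 genes (HSPA1A, HSPA1B, HSPA2, HSPA8 and HSPA9), 3 HSP110 type exchange factors (HSPA4, HSPA4L and HSPH1) and the cytosolic HSP90 genes HSP90AA1 and HSP90AB1. It also holds the small heat shock proteins HSPB1 and HSPB8, 5 J proteins (DNAJA1, DNAJA2, DNAJB1, DNAJB4 and DNAJB6), 3 BAG proteins (BAG1, BAG2 and BAG3), 4 HSP90 cochaperones (STIP1, AHSA1, CDC37 and PTGES3), the mitochondrial chaperonin pair HSPD1 and HSPE1, and 6 subunits of the cytosolic chaperonin TRiC (TCP1, CCT2, CCT3, CCT4, CCT5 and CCT7).

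RNA was sequenced from T98G, an established human glioblastoma line, after infection with a lentivirus that delivered a short hairpin RNA, either the control (shControl) or one against the kinase DYRK1A (shDYRK1A). Both groups went through puromycin selection and a recovery period without the drug. Each group had 3 libraries, named 1A, 1B and 1C, and equal numbers of T98G cells had been mixed with a fixed number of Drosophila Kc167 cells, whose reads gave an external scale. The comparison asked how depletion of the kinase altered transcript levels. The labels name 1 control and 1 DYRK1A hairpin without their sequences, and they do not say whether the 3 libraries of a group came from separate cultures, so the p-values measure the spread between these libraries.

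Chaperones bind unfolded or partly folded proteins and help them reach or keep their structure. HSP70 works in cycles with J proteins, which deliver clients and stimulate its ATPase, and with nucleotide exchange factors of the HSP110 and BAG families, while HSP90 acts later on more structured clients such as kinases and steroid receptors. Chaperonins enclose clients in a chamber: TRiC folds actin and tubulin in the cytosol, and the HSPD1 and HSPE1 ring folds proteins of the mitochondrial matrix. In heat shock the factor HSF1 trimerizes and binds heat shock elements, which are inverted repeats of a short GAA unit.

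Heat shock elements in the promoters are shown because they are the sequence feature by which a large part of the family is known to be regulated. Promoter windows of 300 bases, from 250 before to 50 after a start, were taken from RefSeq (GRCh38.p14). They were present for 33 of the 34 members, in 47 windows, with HSF1 the member without one. An element of 3 units, read as GAANNTTCNNGAA or on the other strand as TTCNNGAANNTTC, was found in 0.49% of all 35116 windows and in 166 genes. A gene was counted if any of its windows matched. Among these genes were 6 members, namely HSPA8, HSP90AA1, HSP90AB1, DNAJA1, DNAJB6 and HSPD1. The lines below give each of these elements with its flanks, and the 2-unit elements of HSPA1A, HSPA1B and HSPB1 as classical heat-inducible genes. Each line is 30 bases, 5′ to 3′ on the strand of the gene, with the element in capitals. The capitals of HSPD1 cover overlapping matches of the 3-unit element, 1 on each strand.
HSPA8, chr11:123062346-123062375, minus strand: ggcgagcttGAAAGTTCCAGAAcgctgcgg
HSPA8, chr11:123062171-123062200, minus strand: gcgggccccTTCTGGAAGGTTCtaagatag
HSP90AA1, chr14:102087112-102087141, minus strand: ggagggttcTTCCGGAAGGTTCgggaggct
HSP90AB1, chr6:44247769-44247798, plus strand: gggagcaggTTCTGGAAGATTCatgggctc
HSP90AB1, chr6:44247822-44247851, plus strand: ctgagattgTTCTGGAAGCTTCtggattct
DNAJA1, chr9:33025267-33025296, plus strand: cgccgggcgGAACTTTCCAGAAcgctcggt
DNAJB6, chr7:157336864-157336893, plus strand: aagagccgaGAACCTTCGCGAAggtggggc
HSPD1, chr2:197500061-197500090, minus strand: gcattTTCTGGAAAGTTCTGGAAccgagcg
HSPA1A, chr6:31815426-31815455, plus strand: cgaaaaccctgGAATATTCccgacctggca
HSPA1B, chr6:31827622-31827651, plus strand: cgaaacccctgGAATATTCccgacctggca
HSPB1, chr7:76302480-76302509, plus strand: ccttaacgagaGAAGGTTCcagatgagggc

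The capitals run from base -230 to -218 and from -55 to -43 before the start in HSPA8, and from -88 to -76 in HSP90AA1. In HSP90AB1 they run from -165 to -153 and from -112 to -100, and in DNAJB6 from -131 to -119. The start is the RefSeq start of the window. For the members with a 3-unit element it lies inside the annotated span of the gene. That span begins at 44246166 for HSP90AB1, at 157335381 for DNAJB6 and, on the minus strand, at 102139699 for HSP90AA1. In DNAJA1 the element lies past the start, at bases 4 to 16. That of HSPD1, at -245 to -228, lies 3′ of the annotated start of HSPE1 (chromosome 2, 197499994), the partner gene that is read in the opposite direction. The looser 2-unit element, read as GAANNTTC or TTCNNGAA and contained in every 3-unit element, was found in 13.49% of all windows. Counted by gene, it was found in 4417 genes, 19 of them members. For both elements the shares are of windows and the member counts are of genes, so they are not like for like. The palindrome TCTCGCGAGA, known from promoters that DYRK1A occupies, was found in 0 members and in 0.42% of windows. A match describes letters in the window and does not show that a factor binds there.

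The libraries held 33708297 to 42154438 human gene counts, and the size factors that the authors took from the fly reads ran from 0.821 to 1.214. The hairpin target DYRK1A stood at 2119 ± 194 normalized counts (SD, n = 3) in shControl and 1274 ± 213 in shDYRK1A, a log2 fold change of -0.73 (SE 0.15, adjusted p 5.33e-06), or of -0.34 (adjusted p 0.000591) when scaled by the human genes. Library shDYRK1A 1B had the lowest depth and the largest share of unmapped reads, 15.65% against 8.44 to 11.92% in the others. Of 7 astroglial or glioma markers, VIM, NES, CD44 and SLC1A3 were above 1 CPM in every library, GFAP was near 0, and S100B and AQP4 were at 0 counts. The summed level of these 7 ran from 3350 to 3500 CPM in shControl and from 3140 to 3220 in shDYRK1A. Its main parts moved in opposite directions. VIM ran from 1887 to 1975 CPM in shControl and from 1530 to 1630 in shDYRK1A. CD44 ran from 1401 to 1539 in shControl and from 1540 to 1591 in shDYRK1A. Of 12 markers of neurons, oligodendrocytes, immune and endothelial cells only SNAP25 passed 1 CPM, and the 3 neuronal markers summed to 10.4 to 11.7 CPM in shControl and 5.99 to 6.95 in shDYRK1A. The part of these differences in the results below was not tested.

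Chaperone transcripts were among the more abundant of the cells, with a wide range between members. Levels were divided by the merged length of all annotated exons of a gene, so the order of members depends on that length. Per kilobase of exon, the shControl level was 806 ± 12.9 CPM per kb (SD, n = 3) for HSP90AB1, rank 28 of the 9697 genes tested, and 448 ± 17.6 for the constitutive HSC70 gene HSPA8. HSPB1 at 336 ± 64.4 and HSP90AA1 at 329 ± 6.84 were within their spread of each other. The classical inducible pair was counted at 12.3 ± 0.131 CPM per kb for HSPA1A and 15.0 ± 0.342 for HSPA1B. These are near-identical copies, and reads that mapped to several places were left out of the gene counts, so both levels can be too low by an amount that was not measured. Most TRiC subunits shared a narrow band per kb, from 134 ± 1.23 (CCT5) to 172 ± 3.34 (CCT7) for 4 of them, with TCP1 at 75.0 ± 1.49 and CCT2 at 74.9 ± 1.96. Before division by length, the same 4 ran from 451.8 (CCT4) to 779.5 CPM (CCT5). The partners of the mitochondrial chaperonin were counted far apart, HSPD1 at 204 ± 5.41 and HSPE1 at 12.9 ± 2.17 CPM per kb. Reads shared with the 26 annotated pseudogenes of HSPE1 were also left out, so the size of this gap is uncertain. Per kb the lowest tested member was BAG1 at 5.50 ± 0.287, with 7.073 kb of exon. Before division by length the lowest was HSPB8 at 20.53 CPM, with BAG1 at 38.93.

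Nearly the whole family was lower in shDYRK1A on the spike-in scale, as were most genes of the cells. There, values compare RNA per T98G cell mixed in, and 30 of the 32 members tested were lower at an adjusted p below 0.05 and 0 were higher. Over all 9697 genes tested the shares were 63.4% lower and 1.08% higher. HSF1 and BAG1 were the members not called. The median log2 fold change was -0.52 over the members and -0.40 over all genes, whose quartiles were -0.58 and -0.23. Beyond a log2 fold change of -0.7 as well there were 5 members, HSP90AA1, DNAJA1, PTGES3, HSPD1 and HSPE1, against 14.3% of all genes. The libraries of the groups did not overlap for 30 members, all lower, against 63.6% of all genes lower without overlap. Reading this scale as RNA per cell rests on the equal numbers of T98G cells mixed in, which the counts here cannot check.

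Because the spike-in scale shifted most genes together, each member was also compared with the bulk of human transcripts by TMM scaling, under which the median over all genes was 0.00. Then 16 members were lower, 3 were higher (HSF1, BAG1 and CCT3) and 13 were not called, against 28.6% of all genes lower and 27.3% higher. The median member stood at -0.12, and 22 of the 32 had a negative value. Groups did not overlap for 19 members that were lower and 5 that were higher, where 32.5% and 30.7% of all genes did so. Leaving out 1 library at a time moved the number of members past -0.7 on the spike-in scale to between 2 (without shDYRK1A 1B) and 10 (without shControl 1C). Of the 30 spike-in calls, 7 were lost without shControl 1A, 9 without shControl 1B, 6 without shDYRK1A 1B, 7 without shDYRK1A 1C and 0 without either other library.

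**Figure D1:**
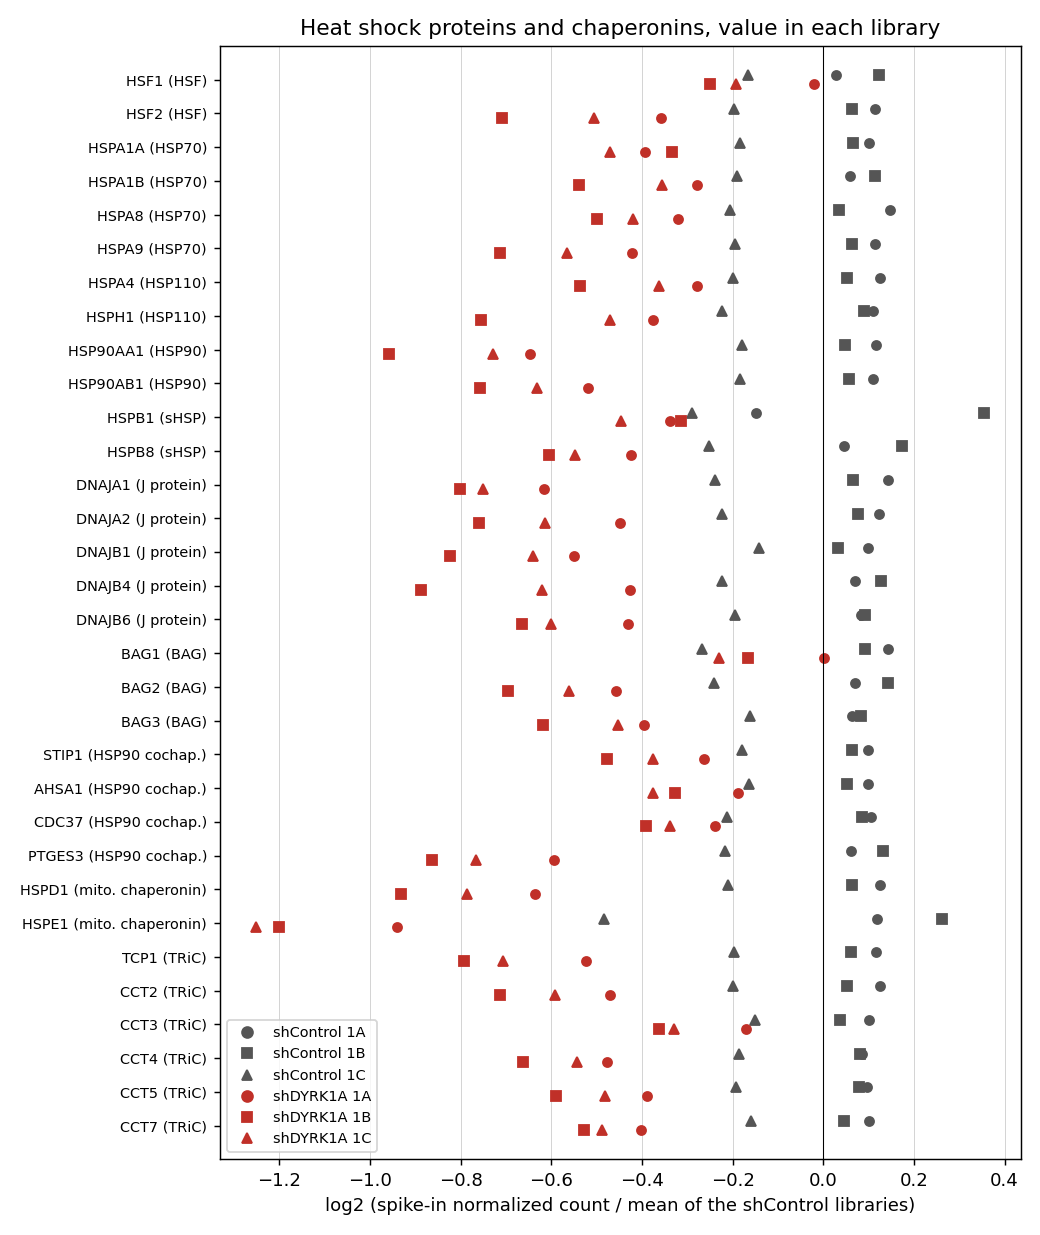
Spike-in normalized count of each tested member in each library, as log2 of its ratio to the mean of the 3 shControl libraries (x axis), with members ordered by role (y axis). Grey symbols are shControl and red symbols shDYRK1A, with circle, square and triangle for 1A, 1B and 1C. The groups overlap for HSF1 and BAG1 and are apart for the 30 other members, with shControl 1C the lowest control throughout.

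**Figure D2:**
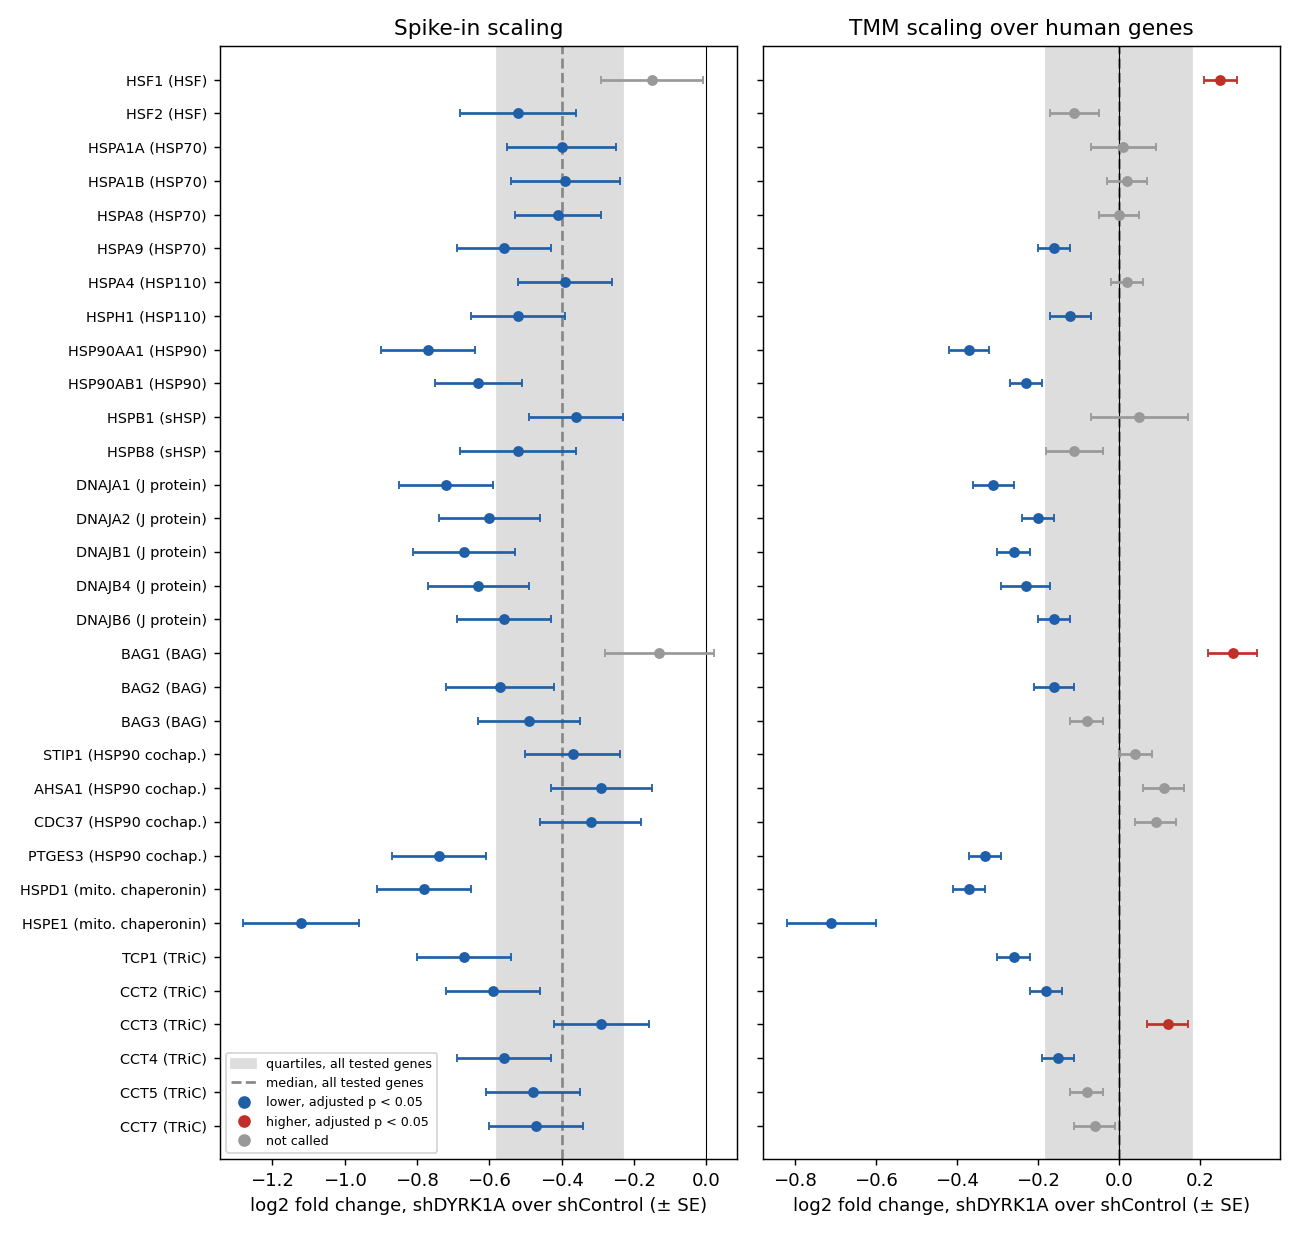
Log2 fold change of shDYRK1A over shControl with its standard error for each tested member, under spike-in scaling (left) and TMM scaling over the human genes (right). The dashed line is the median of all 9697 genes, -0.40 on the left and 0.00 on the right, and the grey band spans their quartiles. Blue and red mark members lower and higher at an adjusted p below 0.05, 30 and 0 on the left and 16 and 3 on the right.

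Of the heat shock factors, HSF2 fell on the spike-in scale and HSF1 was not called there. HSF1, the master regulator of the heat response, had 5344 (1A), 5702 (1B) and 4670 (1C) normalized counts in shControl and, in the same order, 5166, 4409 and 4584 in shDYRK1A. The groups overlapped, and the log2 fold change was -0.15 (SE 0.14, adjusted p 0.317) on the spike-in scale but 0.25 (SE 0.04, adjusted p 0.000535) under TMM, so that its direction turned with the scaling. HSF2, a related factor that can form mixed trimers with HSF1, had 1077, 1041 and 868.5 normalized counts in shControl and 777.0, 609.6 and 701.0 in shDYRK1A. All shDYRK1A libraries were below all shControl libraries, with a log2 fold change of -0.52 (SE 0.16, adjusted p 0.00235), which was -0.11 and not called under TMM (adjusted p 0.116). The HSF1 to HSF2 count ratio, which needs no scaling, was 2.40 ± 0.076 (SD, n = 3) in log2 in shControl and 2.77 ± 0.078 in shDYRK1A, and the shDYRK1A libraries were all above the shControl libraries (two-sided exact permutation p = 0.1, adjusted over 6 ratios 0.15, where 0.1 is the smallest p that 3 libraries against 3 can give).

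All 4 HSP70 genes tested fell on the spike-in scale, where 63.4% of all genes were lower. Their median log2 fold change was -0.40, as it was over all genes, and HSPA9 alone among them also fell under TMM. HSPA8, which serves folding and clathrin uncoating in unstressed cells, had 109199, 101131 and 85604 normalized counts in shControl and 78970, 69809 and 73785 in shDYRK1A. The groups did not overlap, and the log2 fold change of -0.41 (SE 0.12, adjusted p 0.00238) became 0.00 after rounding under TMM (adjusted p 0.973). The stress-inducible HSPA1A had 1490, 1454 and 1222 normalized counts in shControl and 1057, 1102 and 1002 in shDYRK1A, again without overlap. Its log2 fold change of -0.40 (adjusted p 0.0164) turned to 0.01 under TMM (adjusted p 0.891). HSPA1B had 1793, 1861 and 1507 normalized counts in shControl and 1419, 1184 and 1344 in shDYRK1A. Its fold change of -0.39 (adjusted p 0.0172) likewise turned to 0.02 under TMM (adjusted p 0.781). Because the copies are near-identical, their separate counts and their summed level are uncertain, and 36.5% of the exonic bases of HSPA1B are shared with an overlapping gene model on the same strand. Both lost their spike-in call when single libraries were left out, HSPA1A in 3 of 6 fits and HSPA1B in 4 of 6. The ratio of HSPA1A plus HSPA1B to HSPA8 was -4.99 ± 0.064 in log2 in shControl and -4.97 ± 0.032 in shDYRK1A, with overlapping libraries (exact permutation p = 0.9), and its level carries the same limit.

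HSPA9, or mortalin, the HSP70 of the mitochondrial matrix, had 35834, 34588 and 28918 normalized counts in shControl and 24724, 20206 and 22367 in shDYRK1A. Every shDYRK1A library was below every shControl library. It fell by 0.56 in log2 with spike-in scaling (SE 0.13, adjusted p 6.26e-05) and by 0.16 (SE 0.04, adjusted p 0.00724) under TMM, and both calls held in 6 of 6 fits with a library left out. HSPA2, the testis-enriched HSP70, was close to silent with 5, 3 and 0 raw counts in shControl and 10, 2 and 7 in shDYRK1A, and it was not tested.

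Of the HSP110 type proteins, which exchange nucleotide on HSP70 and help it pull aggregates apart, the heat-inducible HSPH1 and the constitutive HSPA4 both fell on the spike-in scale. HSPH1 had 14425, 14232 and 11459 normalized counts in shControl and 10312, 7923 and 9656 in shDYRK1A. HSPA4 had 21886, 20795 and 17473 in shControl and 16521, 13833 and 15594 in shDYRK1A. Neither gene had overlapping groups, and 63.6% of all genes were lower without overlap. The log2 fold changes were -0.52 (adjusted p 0.000291) for HSPH1 and -0.39 (adjusted p 0.00635) for HSPA4. Under TMM, HSPH1 was -0.12 (adjusted p 0.0476, a call that held in 1 of 6 fits with a library left out) and HSPA4 turned to 0.02 (adjusted p 0.754). The spike-in call of HSPA4 held in 3 of those 6 fits. Within libraries the HSPH1 to HSPA4 ratio was -0.59 ± 0.034 in log2 in shControl and -0.73 ± 0.068 in shDYRK1A, with no overlap (exact permutation p = 0.1, adjusted 0.15). HSPA4L, at 108 to 123 raw counts in shControl and 95 to 143 in shDYRK1A, was under the expression filter.

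Both cytosolic HSP90 genes, the inducible alpha and the constitutive beta form, were lower on either scale. Of all genes, 63.4% were lower on the spike-in scale and 28.6% under TMM. HSP90AA1 had 84810, 80941 and 69098 normalized counts in shControl and 49980, 40298 and 47267 in shDYRK1A. HSP90AB1 had 117504, 113342 and 95842 in shControl and 75999, 64394 and 70248 in shDYRK1A. The lowest shControl library exceeded the highest shDYRK1A library for both. HSP90AA1 fell by 0.77 on the log2 scale (SE 0.13, adjusted p 1.62e-08) and by 0.37 under TMM (adjusted p 4.74e-05), while HSP90AB1 fell by 0.63 (SE 0.12, adjusted p 3.05e-06) and by 0.23 under TMM (adjusted p 0.000997). These 4 calls held in 6 of 6 fits with a library left out. As a share of human gene counts the pair took 0.413 ± 0.0074% (SD, n = 3) in shControl and 0.344 ± 0.0088% in shDYRK1A, a ratio of 0.833, and no library of the groups overlapped. The HSP90AA1 to HSP90AB1 ratio was -0.48 ± 0.0084 in log2 in shControl and -0.62 ± 0.053 in shDYRK1A, with all shDYRK1A libraries lower (exact permutation p = 0.1, adjusted 0.15).

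All 4 HSP90 cochaperones fell on the spike-in scale, where 63.4% of all genes were lower. Their median log2 fold change was -0.34, beside -0.40 over all genes, and PTGES3 alone among them also fell under TMM. PTGES3, the p23 protein that stabilizes the closed HSP90 dimer, had 23701, 24873 and 19520 normalized counts in shControl and 15036, 12476 and 13342 in shDYRK1A, without overlap. It fell by 0.74 on the log2 scale (SE 0.13, adjusted p 2.31e-07) and by 0.33 under TMM (adjusted p 7.5e-05). AHSA1, the activator of the HSP90 ATPase, had 6064, 5875 and 5053 in shControl and 4971, 4513 and 4368 in shDYRK1A, so that its nearest libraries of the groups were close. Its log2 fold change was -0.29 (adjusted p 0.0479) on the spike-in scale and turned to 0.11 (adjusted p 0.0808) under TMM. CDC37, which loads kinases onto HSP90, and STIP1, which links HSP70 to HSP90, were at -0.32 (adjusted p 0.0307) and -0.37 (adjusted p 0.00956), and at 0.09 and 0.04 under TMM, where neither was called. The spike-in calls of AHSA1, CDC37 and STIP1 each held in 2 of 6 fits with a library left out.

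The small heat shock proteins, which hold unfolding proteins without ATP, were both lower on the spike-in scale and neither was called under TMM. Among all genes 63.4% were lower on the spike-in scale and 63.6% were lower without overlap, with a median log2 fold change of -0.40. HSPB1 (HSP27) had 22562, 31970 and 20459 normalized counts in shControl and 19770, 20111 and 18360 in shDYRK1A, with shControl 1B far above the other 5 libraries. Its log2 fold change was -0.36 (SE 0.13, adjusted p 0.00974) and turned to 0.05 (SE 0.12, adjusted p 0.723) under TMM. Without shControl 1B the spike-in value was -0.15 (adjusted p 0.436), so that its size rested on that library. With all libraries, the spike-in call of HSPB1 was lost under the DESeq2 Wald test (adjusted p 0.105). HSPB8, the partner of BAG3 in selective autophagy, had 964.2, 1053 and 783.8 normalized counts in shControl and 695.7, 614.3 and 638.4 in shDYRK1A. The groups did not overlap, with a log2 fold change of -0.52 (adjusted p 0.00215) and of -0.11 under TMM (adjusted p 0.168). The spike-in calls of HSPB1 and HSPB8 held in 4 and 5 of 6 fits with a library left out.

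All 5 J proteins were lower on both scales, and each of the 10 calls held in 6 of 6 fits with a library left out. Over all genes 63.4% were lower on the spike-in scale and 28.6% under TMM. DNAJA1, an HSP40 of the cytosol that works with HSPA8, had 19518, 18499 and 14981 normalized counts in shControl and 11527, 10138 and 10499 in shDYRK1A. It fell by 0.72 on the log2 scale (SE 0.13, adjusted p 5.56e-07) and by 0.31 under TMM (adjusted p 0.000229). DNAJB6, a suppressor of polyglutamine aggregation, had 10035, 10100 and 8276 in shControl and 7024, 5971 and 6243 in shDYRK1A. The groups were apart for both genes, and the fall of DNAJB6 was the smallest of the 5, by 0.56 (adjusted p 0.000121) and by 0.16 under TMM (adjusted p 0.00592). The inducible DNAJB1 stood at -0.67 and -0.26, DNAJB4 at -0.63 and -0.23, and DNAJA2 at -0.60 and -0.20 under spike-in and TMM scaling. Together the J proteins took 0.0899 ± 0.002% of human counts in shControl and 0.0769 ± 0.00031% in shDYRK1A. The DNAJA1 to DNAJA2 ratio was 1.76 ± 0.02 in log2 in shControl and 1.65 ± 0.065 in shDYRK1A, without overlap (exact permutation p = 0.1, adjusted 0.15).

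The BAG proteins, which release nucleotide and client from HSP70, included the highest value of the family. BAG1, which couples HSP70 to the proteasome, had 1955, 1887 and 1472 normalized counts in shControl and 1772, 1579 and 1512 in shDYRK1A. The groups overlapped, and the log2 fold change of -0.13 (SE 0.15, adjusted p 0.433) turned to 0.28 (SE 0.06, adjusted p 0.00301) under TMM, a call that held in 6 of 6 fits with a library left out. BAG2, an inhibitor of the ubiquitin ligase CHIP, had 2157, 2266 and 1737 in shControl and 1496, 1267 and 1391 in shDYRK1A, without overlap. It fell by 0.57 on the log2 scale (adjusted p 0.000395) and by 0.16 under TMM (adjusted p 0.0234, held in 3 of 6 fits), and 44.2% of its exonic bases lie opposite exons of RAB23 and ZNF451-AS1. The heat-inducible BAG3 was at -0.49 (adjusted p 0.00113) and at -0.08 under TMM (adjusted p 0.116).

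Both genes of the mitochondrial chaperonin fell on either scale, and their spike-in values were the lowest of the 32 members tested. The shares of all genes called lower were 63.4% on the spike-in scale and 28.6% under TMM. HSPE1, the lid of the chamber (HSP10), had 1266, 1399 and 834.4 normalized counts in shControl and 607.8, 507.7 and 490.1 in shDYRK1A. HSPD1, the barrel (HSP60), had 42934, 41163 and 34034 in shControl and 25334, 20654 and 22832 in shDYRK1A. The groups did not overlap for either gene, though shControl 1C was well below the other shControl libraries for HSPE1. HSPE1 fell by 1.12 on the log2 scale (SE 0.16, adjusted p 3.65e-11), and 1.7% of all tested genes had a lower value. HSPD1 fell by 0.78 (SE 0.13, adjusted p 2.28e-08), with 9.4% of genes lower. Under TMM the values were -0.71 (SE 0.11, adjusted p 0.000237) and -0.37 (SE 0.04, adjusted p 2.67e-05), and all 4 calls held in 6 of 6 fits with a library left out. The spike-in value of HSPE1 ran from -1.32 to -0.97 over those fits. The log2 ratio of HSPD1 to HSPE1 was 5.10 ± 0.24 in shControl and 5.42 ± 0.10 in shDYRK1A, with libraries that met or overlapped (exact permutation p = 0.2, adjusted 0.24), so a greater fall of HSPE1 than of HSPD1 was not resolved.

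The count of HSPE1 has limits of its own. Its 26 annotated pseudogenes together drew 172, 145 and 131 raw counts in shControl and 77, 78 and 86 in shDYRK1A, which is 11.8 to 16.5% of the HSPE1 count in the same library. Reads that mapped to several places were left out of the gene counts. HSPE1 also shares 9.7% of its exonic bases with the read-through gene HSPE1-MOB4, which was at 0 counts in every library, and 14.2% lie opposite exons of HSPD1. The 17 HSPD1 pseudogenes drew 0.9 to 1.4% of the HSPD1 count. The part of these copies in the level of HSPE1 was not tested.

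The TRiC subunits, which form stacked rings of 8 different proteins each, were all lower on the spike-in scale, with log2 fold changes from -0.67 to -0.29. On that scale 63.4% of all genes were lower, with a median of -0.40. TCP1, the subunit that names the complex, had 18184, 17493 and 14647 normalized counts in shControl and 11680, 9685 and 10277 in shDYRK1A. CCT3 had 28055, 26810 and 23553 in shControl and 23218, 20330 and 20797 in shDYRK1A. The groups were apart for TCP1, while the lowest shControl and the highest shDYRK1A library of CCT3 almost met. TCP1 fell by 0.67 on the log2 scale (SE 0.13, adjusted p 3.5e-06) and by 0.26 under TMM (adjusted p 0.000244). CCT3 was at -0.29 (SE 0.13, adjusted p 0.0425) and turned to 0.12 (adjusted p 0.044) under TMM, and each of these calls held in 2 of 6 fits with a library left out. The others lay between, CCT2 at -0.59, CCT4 at -0.56, CCT5 at -0.48 and CCT7 at -0.47, all called. Of the exonic bases of CCT5, 30.1% lie opposite an antisense gene model. Under TMM, CCT2 (-0.18) and CCT4 (-0.15) were called lower, and CCT5 (-0.08) and CCT7 (-0.06) were not called. The remaining subunits tested, which were not on the list, were at -0.79 (CCT8) and -0.59 (CCT6A) and at -0.38 and -0.18 under TMM, all called.

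Counted as shares of all human gene counts, the 34 members together took 1.49 ± 0.02% (SD, n = 3) in shControl and 1.37 ± 0.012% in shDYRK1A, and no library of the groups overlapped. These shares need no spike-in, and the widest 95% Wilson interval of a library was ± 0.0039 percentage points, which covers counting error only. The roles differed in how far their shares were apart. The mitochondrial chaperonin took 0.0893 ± 0.0025% in shControl and 0.0695 ± 0.0016% in shDYRK1A, a ratio of 0.779, beside 0.833 for HSP90 and 0.855 for the J proteins. TRiC (0.312 ± 0.0038% and 0.300 ± 0.0041%) and the HSP90 cochaperones (ratio 0.953) were lower by little, though without overlap. Of the cochaperones PTGES3 went from a mean of 499.8 to 403.4 CPM, while STIP1, AHSA1 and CDC37 each rose. In TRiC, CCT3 rose from 577.0 to 636.2 CPM, while the other listed subunits fell. HSP70 (0.297 ± 0.0098% and 0.294 ± 0.0035%), the HSP110 proteins, the BAG proteins and the small heat shock proteins overlapped between the groups. The heat shock factors took a larger share in shDYRK1A, 0.0160 ± 0.00017% against 0.0138 ± 0.00037%, with all 3 libraries above the shControl libraries. That sum was mostly HSF1, at a mean of 115.6 CPM in shControl and 139.9 in shDYRK1A. HSF2 went the other way, from 21.94 to 20.59 CPM.

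**Figure D3:**
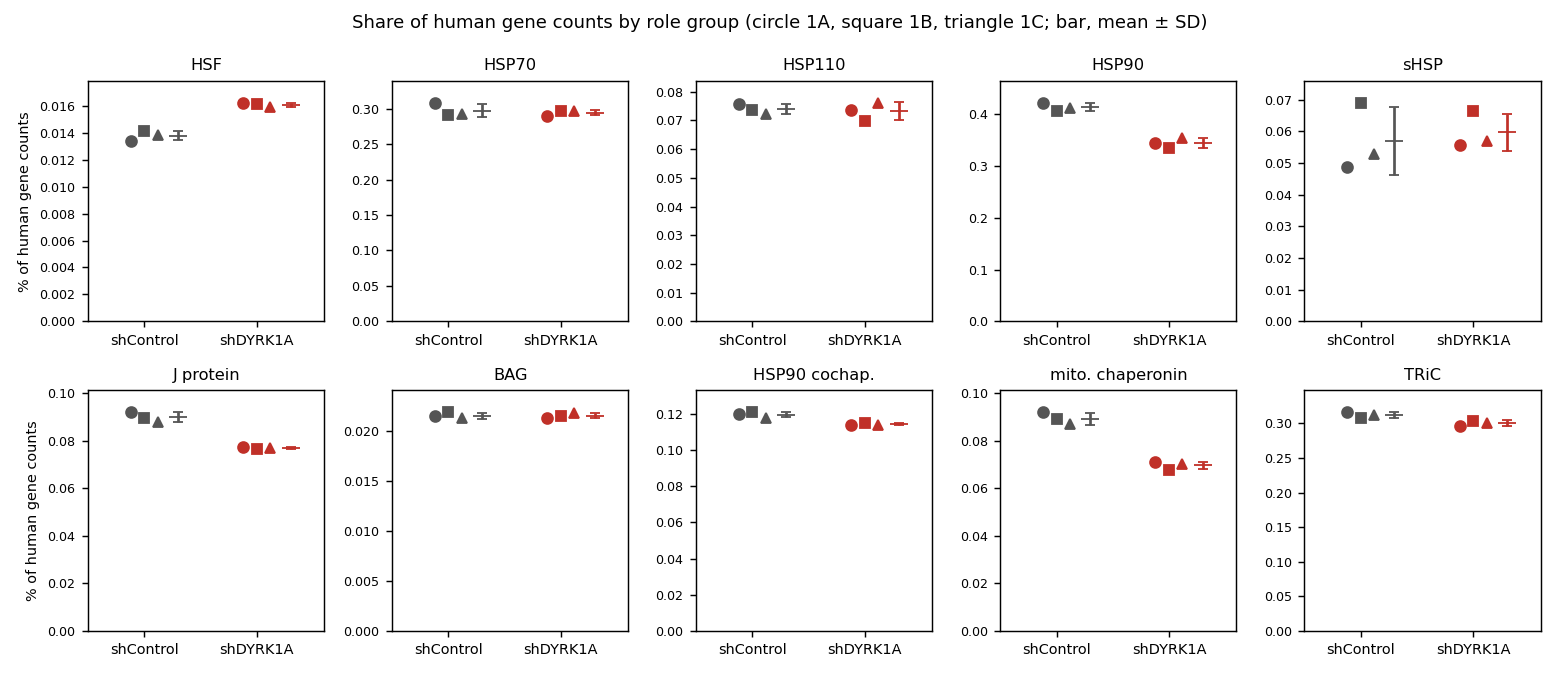
Share of all human gene counts (y axes, percent, each starting at 0) taken by each of the 10 role groups in the shControl (grey) and shDYRK1A (red) libraries. Symbols are libraries and bars the mean ± SD of 3. HSP90, J proteins and the mitochondrial chaperonin show the clearest gaps downward, at ratios of 0.833, 0.855 and 0.779. The heat shock factors show the clearest gap upward, at 1.167, while HSP70 and BAG shares lie on top of each other.

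**Figure D4:**
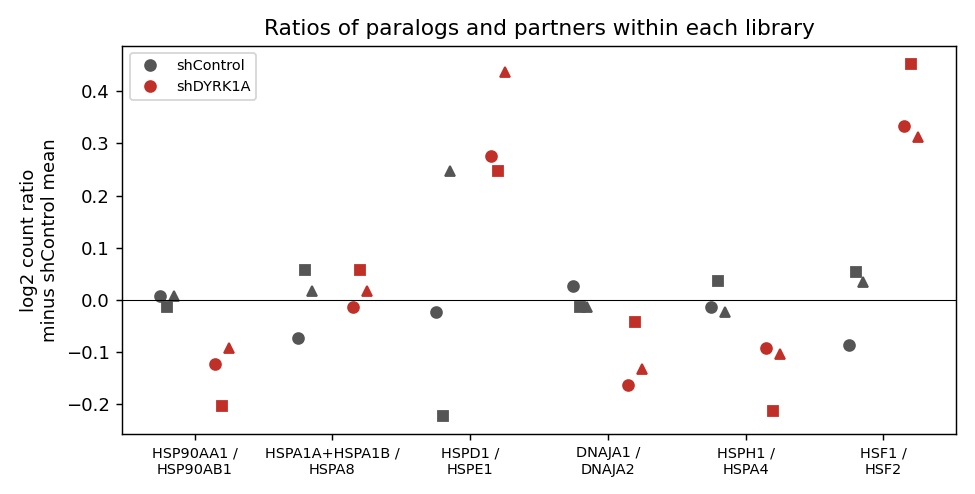
Log2 ratio of the raw counts of paired members within each library, minus the mean of the 3 shControl libraries (y axis), for 6 pairs (x axis), shControl in grey and shDYRK1A in red. HSF1 over HSF2 was higher by 0.37, and HSP90AA1 over HSP90AB1, DNAJA1 over DNAJA2 and HSPH1 over HSPA4 were lower by 0.11 to 0.14, all without overlap. The remaining pairs overlap or meet. Of single genes under TMM, 32.5% were lower and 30.7% higher without overlap, and other pairs of genes were not counted.

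Heat-inducible members and the others had the same median on the spike-in scale. Of 9 members known to be strongly heat-inducible (HSPA1A, HSPA1B, HSPH1, DNAJB1, HSP90AA1, BAG3, HSPB1, HSPE1 and HSPD1), all 9 were lower, with a median log2 fold change of -0.52, beside -0.52 over the other 23 members tested, of which 21 were lower, and 63.4% of all genes were lower. Under TMM, 5 of the 9 were lower and 0 higher, with a median of -0.12, against 11 lower and 3 higher and a median of -0.11 in the others. Over all genes 28.6% were lower and 27.3% higher under TMM. The 6 members with a 3-unit heat shock element in a promoter window, printed above, had a median of -0.68 and of -0.27 under TMM, with a range from -0.78 (HSPD1) to -0.41 (HSPA8). The 25 tested members whose windows lacked one had medians of -0.52 and -0.11. Among these 25 was HSPE1 (-1.12, and -0.71 under TMM), whose annotated start lies near the HSPD1 element. HSPA1A, HSPA1B, HSPB1 and DNAJB1, with only 2-unit elements, were also among them. Among genes outside the family, 30 tested genes with such an element had medians of -0.45 and -0.05, and 7533 without one had -0.41 and 0.00. These medians are descriptions of unequal and overlapping sets, and no difference between them was tested.

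A wider list of 58 chaperone and cochaperone genes that are not members was counted in the same way, and 50 of them were tested. On the spike-in scale 37 were lower and 0 higher (63.4% and 1.08% of all genes), with 9 past -0.7 (14.3% of all genes) and a median log2 fold change of -0.46. Under TMM 19 were lower, 9 higher and 22 not called, with a median of -0.05, where 28.6% of all genes were lower and 27.3% higher. The lowest was HSPA13, a microsomal HSP70 relative, at 3118 ± 354 normalized counts (SD, n = 3) in shControl and 931 ± 183 in shDYRK1A, a log2 fold change of -1.74 (SE 0.15, adjusted p 6.55e-29) and of -1.34 under TMM. It was followed by FKBP5, an HSP90 cochaperone of steroid receptors, at -1.10 (TMM -0.70), and CHORDC1, a cochaperone that binds HSP90, at -1.09 (TMM -0.69), both called on either scale. At the upper end DNAJB2 was at 0.15 and HSPBP1 and CLPB at -0.02, none of them called on the spike-in scale. Under TMM these 3 were higher, at 0.55, 0.39 and 0.39. The stress-only HSP70 gene HSPA6 was at 40.0 ± 6.70 normalized counts in shControl and 22.1 ± 2.18 in shDYRK1A, under the expression filter.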

How the data were processed

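Groups came from the sample titles. The authors deposited raw gene counts per library from stranded mRNA libraries. The submitters' processing notes name STAR, DESeq2 and the builds hg38 and dm3. Aligner version, annotation and the strand setting of counting are not given in the sources used here. Unmapped (8.44 to 15.65% of reads), multimapping (2.26 to 2.49%), feature-less (3.66 to 4.81%) and ambiguous reads (3.42 to 3.59%) stayed out of library sizes. The authors' deposited normalized signal for 23026 genes equals raw counts divided by 1 constant per library, derived from fly reads in their methods. These constants were used as size factors, since fly counts were not analysed here. The authors' DESeq2 comparison table (fold changes, p-values) was not used. Coordinates equalled GENCODE v29 (GRCh38) for 33 members.

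Genes above a mean normalized CPM of 10 were tested (9697) with edgeR 4.0.16 (glmQLFit, glmQLFTest, robust; R 4.3.3), with the spike-in size factors or TMM, and adjusted by Benjamini-Hochberg over all of them. Calls needed an adjusted p below 0.05, and -0.7 was the fold threshold of the study. Every adjusted p of a gene is from this quasi-likelihood test unless the DESeq2 Wald test is named. Ratios were compared by exact permutation (scipy 1.17.1, Python 3.11.15), and intervals are Wilson. Alternatives were median-of-ratios scaling, DESeq2 1.42.0, the filterByExpr rule of edgeR or only 1 count as filter, a block for the replicate letter, and leaving out each library. All members were named, with values per library for the factors, the main HSP70, HSP90, HSPB1 and mitochondrial chaperonin genes and the lowest and highest member of each role, and for the wider list the 3 lowest and 3 highest. CCT8, CCT6A, HSPA6, HSPA2 and HSPA4L were added to those with values. Members and lists were chosen with earlier results of these data known. Fits and motif searches were tested on simulated data.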

Additional observations from a re-analysis of the deposited data

How the results depend on the processing

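Scaling decided most. TMM in place of the spike-in left 16 members lower, 3 higher and 1 past -0.7, with a median log2 fold change of -0.117, and median-of-ratios scaling left 15, 3, 1 and -0.114. Direction turned for HSF1 (0.254 under TMM and 0.257 under median of ratios), HSPA1A (0.014 and 0.017), HSPA1B (0.018 and 0.022), HSPA4 (0.017 and 0.020), HSPB1 (0.055 and 0.058), BAG1 (0.283 and 0.286), STIP1 (0.038 and 0.041), AHSA1 (0.112 and 0.116), CDC37 (0.088 and 0.091) and CCT3 (0.120 and 0.123), and for HSPA8 under median of ratios (0.001), where DESeq2's Wald test also gave 0.001.

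Against the TMM results, filterByExpr turned HSPA1A (-0.016), HSPA1B (-0.012) and HSPA4 (-0.013), and no filter turned HSPA1A (-0.032), HSPA1B (-0.028), HSPA4 (-0.029) and STIP1 (-0.009) and moved the median to -0.160 over 34 members. None of these was called. The TMM call of CCT3 was lost under filterByExpr (adjusted p 0.152) and with no filter (adjusted p 0.345). On the spike-in scale 27 to 29 members stayed lower under DESeq2, either filter and the replicate block. HSPB1 lost its call under the DESeq2 Wald test (adjusted p 0.105). AHSA1 (adjusted p 0.0586) and CCT3 (adjusted p 0.0527) lost theirs under filterByExpr. With no filter AHSA1 (adjusted p 0.091), CDC37 (adjusted p 0.0589) and CCT3 (adjusted p 0.086) did so. With a library left out 21 to 30 were lower (21 without shControl 1B) and 2 to 10 lay past -0.7: 2 without shDYRK1A 1B, 3 without shControl 1B, 8 without shDYRK1A 1A and 10 without shControl 1C. The TMM values ranged from -0.090 to 0.083 for HSPA1A, -0.004 to 0.034 for HSPA1B, -0.028 to 0.028 for HSPA8, -0.002 to 0.037 for HSPA4 and -0.050 to 0.214 for HSPB1, and the log2 ratio of HSPA1A plus HSPA1B to HSPA8 from -0.016 to 0.046.

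With the letter as a replicate block 29 members were lower and 0 higher on the spike-in scale, and 16 and 2 under TMM. AHSA1 (adjusted p 0.0642) and CCT3 under TMM (adjusted p 0.0622) lost their calls. Deviations from the group means correlated at 0.151, 0.073 and 0.128 for 1A, 1B and 1C, each library best with its own letter, a hint from the data and not from the design. Depth limits HSPA2 and HSPA4L, which were too low to test. Apart from the values above, the cause of these differences was not tested.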
